A study of Mus musculus with 4 samples.

Results

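The 9 genes described here encode the signalling subunits of the B cell receptor (Cd79a and Cd79b), B cell surface receptors (Ms4a1, Cd22 and Cd180), signalling adaptors (Blnk and Bank1) and transcription factors of B cell identity (Pax5 and Ebf1). They were taken by name for their function, by a rule that uses no measured value, though with earlier results of these data known, and are 9 of 19505 genes measured. Each had 1 probe set, so the choice of the brightest probe set of a gene did not bear on them. The samples were 4 libraries of cardiac macrophages, titled CD74, Ccrl2, CD163 and Trem2, each hybridised to 1 Clariom S mouse array. All came from wild-type C57BL/6N mice aged 15 to 16 weeks after transverse aortic constriction (TAC), a banding of the aorta that overloads the left ventricle. Cells of 6 hearts were mixed and then sorted by surface marker, so that each library is 1 pool and no animal can be followed. The labels differ on the time after TAC, which is 8 weeks in the source names and 1 week in the growth protocol. They also differ on the sorts, since the source name of the CD74 library reads CD9, and Lyve1 stands in the growth protocol in place of CD163. No unoperated heart, B cell sort or second library of any population was among the samples, so differences are given without a replicate check, and no test could be run.

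The B cell receptor is a membrane immunoglobulin that cannot signal alone. It is paired with the Cd79a and Cd79b chains, whose tails carry tyrosine motifs that recruit the kinase Syk, and Syk in turn phosphorylates the adaptor Blnk to start calcium and kinase signalling. Cd22 binds sialic acids and dampens that signal through phosphatases, Ms4a1 is the surface protein CD20, and Ebf1 and Pax5 open and hold the B cell programme during development. Some of these genes are also used outside the B lineage: Blnk and Cd180 are expressed by macrophages and dendritic cells, and Ebf1 by fibroblasts and mural cells. The mouse heart holds B cells, many of them in its microvessels.

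The promoters of 7 members are in RefSeq's GRCm38.p6 table, and those of Cd79b and Ms4a1 were not used here. The promoter windows of Pax5, Ebf1 and Cd180 held none of the letters marked below, and that of Cd22 lay inside the gene's own annotated span. The sequences below are those of Cd79a, Bank1 and Blnk, which held such letters. They hold bases upstream of the annotated start, 5′ to 3′ on the gene's strand, outside the gene's own annotated span. Capitals mark the letters CAGGTG of an E2A site or their reverse complement, the octamer ATGCAAAT or its reverse complement, and the ETS letters CAGGAAGT.
Cd79a, chr7:24897247-24897496, plus strand: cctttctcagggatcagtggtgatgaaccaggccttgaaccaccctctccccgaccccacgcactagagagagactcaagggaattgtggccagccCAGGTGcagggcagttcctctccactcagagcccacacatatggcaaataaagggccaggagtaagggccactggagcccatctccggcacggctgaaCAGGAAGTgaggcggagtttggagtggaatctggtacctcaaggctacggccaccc
Bank1, chr3:136326142-136326316, minus strand: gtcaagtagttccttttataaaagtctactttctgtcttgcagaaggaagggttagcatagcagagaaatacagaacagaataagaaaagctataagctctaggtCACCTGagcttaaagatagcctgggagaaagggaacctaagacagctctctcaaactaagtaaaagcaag
Blnk, chr19:40994222-40994471, minus strand: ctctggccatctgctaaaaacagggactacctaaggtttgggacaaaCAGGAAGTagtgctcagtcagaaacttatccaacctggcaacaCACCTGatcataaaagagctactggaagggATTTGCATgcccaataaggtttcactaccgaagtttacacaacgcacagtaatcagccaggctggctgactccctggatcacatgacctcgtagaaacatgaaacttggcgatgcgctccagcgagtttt
In the 250 bases before the start, the E2A letters occurred on either strand in 4 of the 7 members (Cd79a, Bank1, Blnk and Cd22), against 17.1% of 27025 gene promoters of that length. The octamer occurred in Blnk, against 1.61% of promoters, and the ETS letters, which were picked after the promoters had been read, in Cd79a and Blnk, against 2.73%. The EBF motif, searched as TCCC and GGGA with 2 bases between, occurred in Cd22 as TCCCTGGGGA, against 0.788% of promoters, and the PU.1 letters GAGGAAGT in 0 of the 7, against 2.44%. The E2A and EBF matches in Cd22 lay inside that gene's own annotated span. No 2 of the motifs share bases in the windows printed. Such matches describe the letters of these windows and not binding.

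Values are the deposited log2 expression values. Each library has a background ceiling, the level under which 95% of 1498 genes lay that macrophages are not known to use (keratin-associated proteins and receptors of smell, pheromones and taste). It lay at 6.53 in CD74, 5.67 in Ccrl2, 6.28 in CD163 and 5.51 in Trem2, and 3621 to 8144 genes lay above it. The macrophage markers were far lower in 1 library than in the others. In Ccrl2, CD163 and Trem2, 8 of 8 lay above the ceiling with medians from 16.01 to 16.50, whereas in CD74 the median was 8.04 and 6 of 8 lay above it. Of all genes, 18.6% lay above it in CD74 and 25.6% to 41.8% in the others. The CD74 column also had the lowest 95th percentile, 8.30 against 10.25 in Trem2. With its macrophage markers this low, the CD74 library is named by its title only.

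Transcripts of some or all of these genes lay above background in each of the sorts labelled as macrophages. In Trem2 and in Ccrl2 all 9 genes lay above the ceiling, where 41.8% and 38.2% of all genes did. In CD74, 7 did (18.6% of all genes), with Cd79b and Ms4a1 only 0.12 and 0.04 log2 units over it. Blnk and Cd22 lay under it there. In CD163, 5 did (25.6% of all genes), which were Cd79a, Ebf1, Bank1, Blnk and Cd180. Cd79a passed it by 0.03 log2 units, and Cd79b, Ms4a1, Pax5 and Cd22 lay under it. In pooled RNA of this kind, fewer B cells and less of a transcript in each cell cannot be told apart.

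Cd79a, the Ig-alpha chain, had 11.80 in Trem2, 10.70 in CD74, 9.66 in Ccrl2 and 6.31 in CD163. The gene was well above background in 3 libraries and at the ceiling of 6.28 in CD163. Each neighbour in this order was at least 2-fold apart, with 2.14-fold between Trem2 and CD74, 2.06-fold between CD74 and Ccrl2 and 10.2-fold between Ccrl2 and CD163. Between Trem2 and CD163 the difference was 44.9-fold, with the CD163 value 0.03 log2 units over its ceiling and so not resolved from background. The place of CD74 depended on scaling. After quantile normalization, which gives all columns the same distribution, Cd79a had 11.99 in CD74, 10.84 in Trem2, 8.93 in Ccrl2 and 6.47 in CD163, so that CD74 and not Trem2 was highest. Within its own library Cd79a ranked at percentile 98.4 of all genes in CD74 and 97.4 in Trem2.

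Cd79b, the Ig-beta chain that pairs with Cd79a, was high in 1 library only. It had 10.26 in Trem2, 6.65 in both CD74 and Ccrl2, and 5.30, under the ceiling, in CD163. Trem2 was 12.2-fold above CD74 and above Ccrl2, and at least 15.8-fold above CD163 with that value set at its ceiling. In CD74 the value lay 0.12 log2 units over the ceiling. After quantile normalization Cd79b was still highest in Trem2 (9.42 against 7.17 in CD74).

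Among the surface receptors, Ms4a1 showed the smallest differences over the 3 libraries that measured it. It had 7.34 in Trem2, 7.15 in Ccrl2, 6.57 in CD74 and 4.48, under the ceiling, in CD163. Trem2, Ccrl2 and CD74 lay within 1.71-fold of each other, and their order changed with quantile normalization to 7.05 in CD74, 6.93 in Trem2 and 6.89 in Ccrl2. The CD74 value was at the ceiling, as it exceeded it by 0.04. Against CD163 the Trem2 value was at least 2.08-fold higher.

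Cd22, the inhibitory sialic acid receptor, had 8.46 in Trem2, 6.55 in Ccrl2, 4.89 in CD163 and 4.40 in CD74. The last 2 values lay under their ceilings. Trem2 was 3.76-fold above Ccrl2, at least 3.81-fold above CD74 and at least 4.53-fold above CD163.

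Cd180, a Toll-like receptor relative that works with the secreted protein Ly86, was highest in Ccrl2. It had 12.19 in Ccrl2, 11.94 in Trem2 and 7.24 in CD74, and in CD163 it lay 3.72 log2 units over the ceiling. Ccrl2 and Trem2 were within 1.19-fold of each other, and both were far above CD74, by 30.9-fold and 26.0-fold. CD163 was 6.77-fold above CD74. This is the one comparison in which a member was at least 2-fold higher in CD163 than in another library.

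Blnk, the adaptor downstream of Syk, had the same order of libraries as Cd180. It had 10.15 in Ccrl2, 9.71 in Trem2, 6.65 in CD163 and 5.77, under the ceiling, in CD74. Ccrl2 was 11.3-fold above CD163 and at least 12.3-fold above CD74, but 1.36-fold above Trem2. For both Blnk and Cd180 the order of all 4 libraries was the same after quantile normalization.

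Bank1, a scaffold that links the receptor to calcium release, had instead the order of the receptor chains at its top. It had 13.33 in Trem2, 11.00 in Ccrl2, 10.30 in CD74 and 10.19 in CD163. Trem2 was 5.03-fold above Ccrl2 and 8.17-fold above CD74. The other 3 libraries lay within 1.75-fold of each other, all well above background. After quantile normalization Trem2 was still highest, at 12.43, with CD74 next at 11.60.

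Pax5, which holds B cell identity, had 8.17 in Trem2, 6.88 in Ccrl2, 6.84 in CD74 and 4.09, under the ceiling, in CD163. Trem2 was 2.45-fold above Ccrl2, 2.51-fold above CD74 and at least 3.71-fold above CD163. Quantile normalization left Trem2 (7.60) and CD74 (7.46) close together, with 6.68 in Ccrl2. Ebf1, the factor that acts upstream of Pax5, had a narrower range and was above the ceiling everywhere, with 10.62 in Trem2, 9.95 in Ccrl2, 9.02 in CD74 and 8.29 in CD163. Trem2 was 1.59-fold above Ccrl2, and Ccrl2 1.91-fold above CD74. The CD74 library became the highest for Ebf1 after quantile normalization (10.29 against 9.75 in Trem2).

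**Figure D1:**
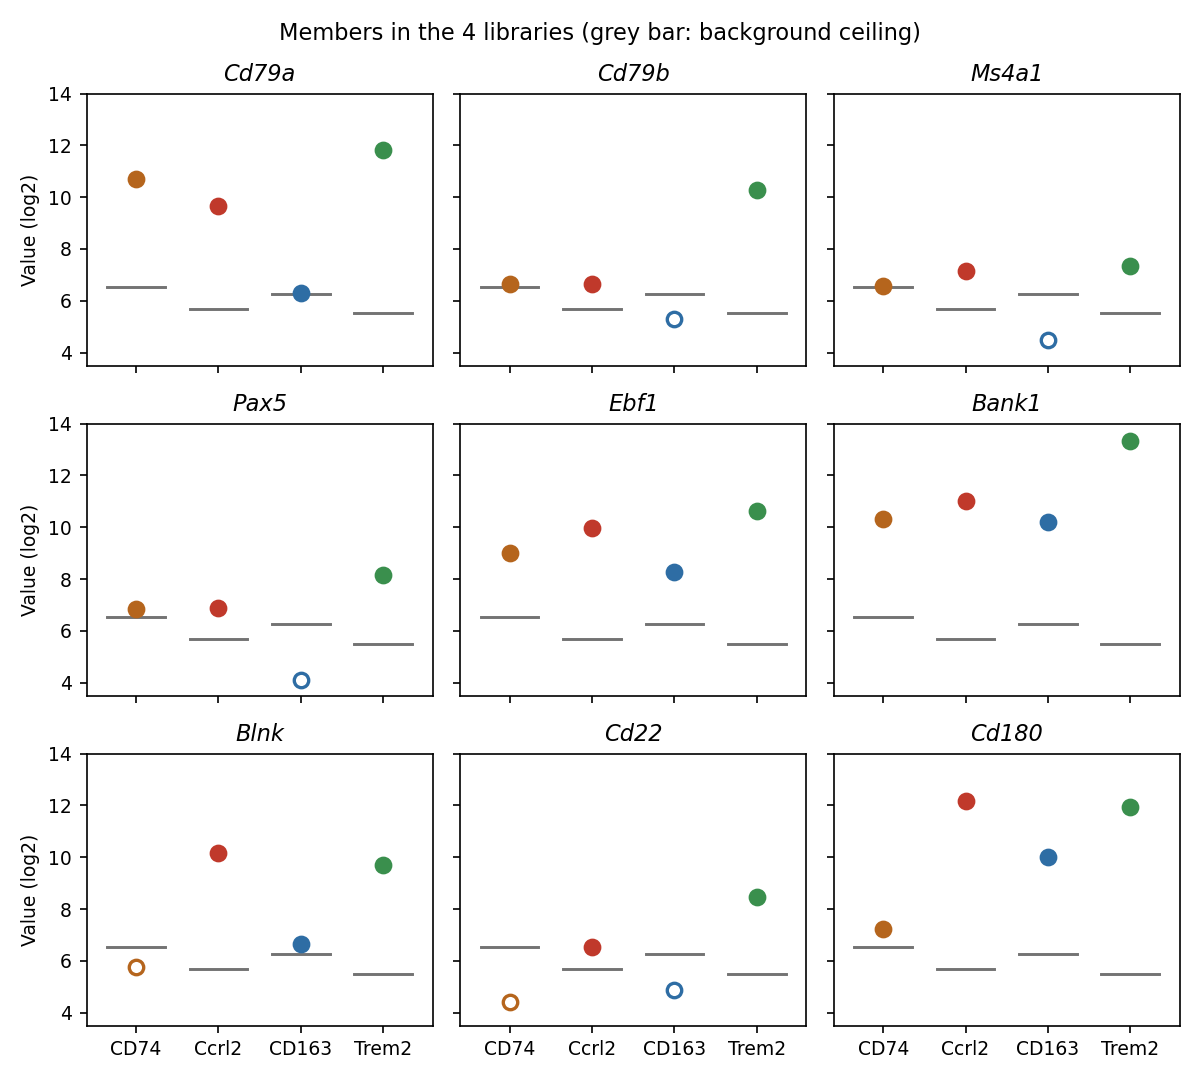
Deposited log2 values of the 9 genes in the 4 libraries, 1 point for each library; grey bars are the background ceilings (6.53, 5.67, 6.28 and 5.51 from left to right), and open points lie at or under them. Trem2 is highest for 7 genes and Ccrl2 for Blnk and Cd180, and CD163 has 4 of the 6 open points.

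A gene was called higher in a library when its value there was above the ceiling and at least 2-fold above the other library's value or ceiling, whichever was higher. Over all 9 genes, Trem2 was the high side of most calls. Against Ccrl2, 5 of 9 were higher in Trem2 (Cd79a, Cd79b, Pax5, Bank1 and Cd22), where 7.92% of 8773 genes tested were, and 0 of 9 were higher in Ccrl2, where 5.43% were. The median difference over the 9 genes was 1.29 log2 units, against 0.08 over all genes tested. These 2 libraries had similar distributions of values, and quantile normalization gave 4 of 9 higher in Trem2, with Pax5 lost, against 4.23% of genes, and 0 higher in Ccrl2, against 3.83%.

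Against CD163, all 9 genes were higher in Trem2, where 27.6% of 8532 genes were, and 0 in CD163, where 6.07% were. The median difference was 3.14, against 0.69 over all genes tested. Folds ran from at least 2.08 (Ms4a1) to 44.9 (Cd79a, with CD163 at its ceiling), with Cd79b, Ms4a1, Pax5 and Cd22 given as bounds. After quantile normalization 6 of 9 were called (855 of 8532 genes, 10%), without Ms4a1, Ebf1 and Cd180, and 0 were higher in CD163 (15.0% of genes). All 9 differences were above 0, as were 56.8% of those of all genes tested. Those of Cd79b, Ms4a1, Pax5 and Cd22 were taken against CD163 values under the ceiling. The direction of calls over all genes turned between these scalings: 82.0% of genes called on the deposited values were higher in Trem2, and 40.1% after quantile normalization.

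Ccrl2 also lay above CD163 for these genes. Of 9, 4 were called higher in Ccrl2 (Cd79a, Ebf1, Blnk and Cd180), where 28.1% of 7891 genes were, and 0 in CD163, where 5.03% were. All 9 differences were above 0 on the deposited values, as were 74.4% of those of all genes tested. Their median was 2.19, against 0.69 over all genes tested. These differences include CD163 values under the ceiling. Cd79b, Ms4a1, Pax5 and Cd22 could not be called because their CD163 values lay under the ceiling, and their bounds were 1.29-fold, 1.83-fold, 1.52-fold and 1.21-fold. Quantile normalization kept Cd79a and Blnk (9.45% of genes), and called 0 higher in CD163 (13.3% of genes), although Bank1 then had 10.67 in CD163 and 10.22 in Ccrl2. Of all genes called, 84.8% were higher in Ccrl2 on the deposited values and 41.5% after quantile normalization.

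The CD74 library gave the comparisons that depended most on scaling. On the deposited values 8 of 9 genes were higher in Trem2 than in CD74 (all but Ms4a1), where 32.6% of 8522 genes were, and 0 in CD74, where 7.62% were. The median difference was 3.03, against 1.01 over all genes tested. After quantile normalization 3 were higher in Trem2 (Cd79b, Blnk and Cd180), where 10.6% of genes were, and 1 in CD74 (Cd79a), where 18.1% were. Over all genes, 81.1% of calls were higher in Trem2 on the deposited values and 37.0% after quantile normalization. Against Ccrl2, 1 of 9 was higher in CD74, Cd79a, which is near the 7.80% of 7902 genes. Blnk and Cd180, 2 of 9, were higher in Ccrl2, a smaller share than the 32.0% of all genes. Quantile normalization added Ebf1 and Bank1 to the genes higher in CD74 (20.3% of genes) and left Blnk and Cd180 higher in Ccrl2 (12.1%), and over all genes the share of calls higher in Ccrl2 went from 80.4% to 37.3%. Against CD163, 8 of the 9 genes were tested, as Cd22 lay under both ceilings. Cd79a alone was higher in CD74, by 21.0-fold, which is near the 9.98% of 5842 genes. Cd180 alone was higher in CD163 (19.3% of genes). There the share of calls higher in CD163 went from 66.0% to 42.9%, and quantile normalization added Pax5 and Ebf1 to the genes higher in CD74 (21.2% of genes) and left Cd180 higher in CD163 (15.9%).

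**Figure D2:**
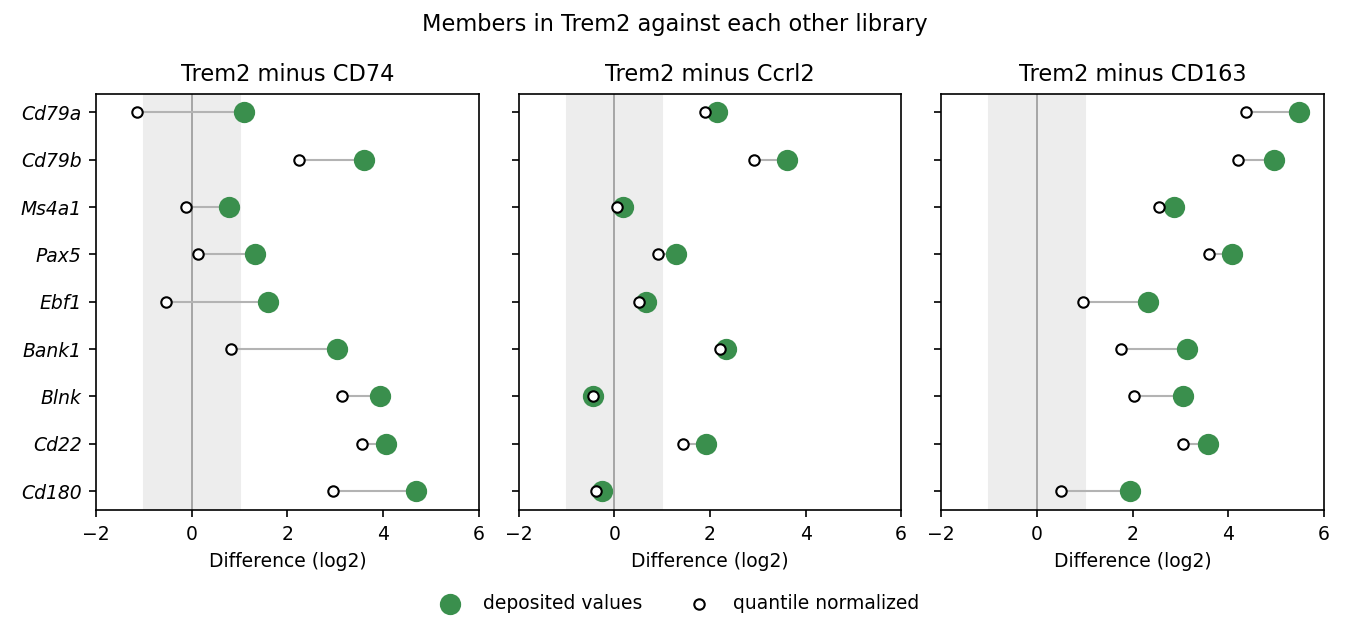
Difference in log2 value between Trem2 and each other library for the 9 genes, on the deposited values (filled) and after quantile normalization (open); the grey band spans less than 2-fold. Against Ccrl2 the 2 scalings lie close together, and against CD74 Cd79a moves from 1.10 to below 0.

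Genes that work beside these 9 were followed through lists chosen by function. Of 15 measured B cell surface and survival genes, 8 were called higher in Trem2 than in Ccrl2 and 0 in Ccrl2, with a list median of 1.21, beside the 7.92% and 5.43% of all genes and their median of 0.08. Among the 8 were Tnfrsf13c, the receptor for the survival factor BAFF (8.03 in Trem2 against 6.25 in Ccrl2), Fcmr, an IgM receptor (7.96 against 5.34), and H2-Oa, a B cell peptide-loading modulator (7.85 against 5.49). Cd24a, which neutrophils carry as well, had 10.75 in Trem2 and 7.35 in Ccrl2, and Ly6d had 7.27 and 4.50. The Ccrl2 values of Fcmr, H2-Oa and Ly6d lay under the ceiling. Cd69, an activation marker of all lymphocytes, was highest in CD74 (13.52) and next in Trem2 (12.39), with 6.10, under the ceiling, in CD163. Cd55, a complement regulator, was also highest in CD74, at 10.14. In CD163, 4 of the 15 lay above the ceiling, near the 25.6% of all genes there. In Trem2 14 did (41.8% of all genes), and 11 did in both CD74 (18.6%) and Ccrl2 (38.2%).

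Of 14 measured B lineage transcription factors, 5 were called higher in Trem2 than in Ccrl2 (median 0.62), where 7.92% of all genes were. In Ccrl2, 1 was higher, which is near the 5.43% of all genes. It was Mef2c, a factor of B and myeloid cells (15.02 against 13.95). Pou2af1, a B cell coactivator of octamer factors, had 8.87 in Trem2, 7.10 in Ccrl2, 6.50 in CD74 and 4.71 in CD163, the last 2 under their ceilings. Ikzf1, Ikzf3 and Ets1 are shared with T and NK cells and were highest in CD74. Ikzf3 had 9.22 there, 8.33 in Trem2, 5.77 in Ccrl2 and 5.63, under the ceiling, in CD163. Ets1 had 12.13, 11.25, 9.81 and 7.44 in the same order, and Ikzf1 10.89, 10.39, 9.13 and 6.71. None of the 11 EBF and PAX paralogs lay above the ceiling in any library.

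Many kinases and enzymes of receptor signalling are shared with myeloid cells. Of 20 measured, 4 were higher in Trem2 (Blk, Pik3cd, Grb2 and Nfatc1) and 1 in Ccrl2 (Dapp1), with a median of 0.63, beside 7.92% and 5.43% of all genes. Blk, a Src-family kinase of B cells, had 7.04 in Trem2 and was under the ceiling in the other 3 libraries. Plcg2, which makes the calcium messenger, had 9.42 in Trem2, 8.47 in Ccrl2, 6.49 in CD163 and 5.55, under the ceiling, in CD74. Btk was highest in CD163, at 10.56, against 8.84 in Ccrl2 and 6.63 in CD74. Cd81, a tetraspanin that most cells express, was at the top of the scale in Trem2 and Ccrl2 (19.93) and had 14.28 in CD74.

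Of 13 inhibitory receptors and phosphatases, 1 was higher in Trem2 than in Ccrl2, which was Fcrl1, a receptor of B cells (7.18 against 5.62, under the ceiling), and 0 were higher in Ccrl2. That is near the 7.92% of all genes higher in Trem2. Fcrla, another Fc receptor-like gene, had 6.44 in Trem2 and was under the ceiling elsewhere. Inpp5d, the lipid phosphatase SHIP1, had 13.68 in Ccrl2 and 12.78 in Trem2, and Cd72 had 9.78 and 10.21. Fcgr2b, the inhibitory IgG receptor of B cells and macrophages, had 18.24 in CD163 and 11.68 in CD74. Siglecg, the B cell relative of Cd22, was under the ceiling in all 4 libraries. Of the other siglecs, Cd33 had 10.53 in Ccrl2 and 10.08 in Trem2, Siglec1 7.54 in CD163 and Siglece 7.47 in Trem2.

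Ly86, the partner of Cd180, and the related Toll-like receptor and co-receptor genes other than Tlr1 had their low point in CD74, as Cd180 did. Tlr1 was under the ceiling in CD74 (5.26) and in CD163 (5.02). Ly86, which Cd180 needs to reach the surface, had 15.47 in Trem2, 14.43 in Ccrl2, 12.59 in CD163 and 9.73 in CD74. Tlr2, Cd14 and Ly96 had 14.56, 15.37 and 10.40 in Ccrl2 against 7.77, 8.58 and 6.73 in CD74. Of the 6 genes in this list, 5 were higher in Ccrl2 than in CD74, where 32.0% of all genes were, and 5 after quantile normalization, where 12.1% were. Adaptors of the Blnk type split. Lcp2, its counterpart in T and myeloid cells, had 9.67 in Ccrl2 and 7.13 in CD74, and Gab2 had 9.24 and 6.70. Lat, the T cell adaptor, had 9.07 in CD74 and 4.68, under the ceiling, in Trem2.

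Of 16 immunoglobulin and surrogate chain genes listed, 5 were measured and 11, among them the heavy and light chain constant genes, were not analysed here. Jchain, which joins IgM and IgA into polymers, had 10.07 in Trem2, 7.67 in CD74, 6.86 in Ccrl2 and 6.81 in CD163, which made it 5.28-fold higher in Trem2 than in CD74. The surrogate light chain genes Vpreb1, Vpreb2 and Igll1 were under the ceiling in all 4 libraries, and Vpreb3 was above it in Trem2 alone, at 5.61. Plasma cell genes did not follow Jchain: Sdc1, Tnfrsf17, Mzb1 and Derl3 were under the ceiling throughout. Xbp1 (10.44) and Prdm1 (7.73), which myeloid cells also use, were highest in Ccrl2.

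Markers of other leukocytes also differed between the libraries, neutrophil markers with their peak in Trem2 and T and NK cell markers with theirs in CD74. Of all genes, 18.6% lay above the ceiling in CD74, 38.2% in Ccrl2, 25.6% in CD163 and 41.8% in Trem2. All 7 neutrophil markers lay above the ceiling in Trem2 (median 12.55), 4 in CD74 (6.81), 4 in Ccrl2 (5.76) and 1 in CD163 (4.66). Retnlg, a neutrophil gene, had 16.81 in Trem2 and 7.15 or less elsewhere. Of these markers, 7 of 7 were higher in Trem2 than in Ccrl2, where 7.92% of all genes tested were. Of 11 T and NK cell markers, 10 lay above the ceiling in CD74 (median 9.02), 6 in Trem2 (5.56), 2 in CD163 (5.15) and 1 in Ccrl2 (4.56). Cd3e had 9.50 in CD74 and was under the ceiling in the other 3 libraries, and Gzma had 13.01 in CD74 and 9.71 in Trem2. Of 8 dendritic cell markers, 3 lay above the ceiling in Ccrl2 and in Trem2 and 2 in CD74 and in CD163, near the shares of all genes. The defining genes Flt3, Zbtb46, Xcr1 and Clec9a were under it throughout. Ccr7, of the same list, had 14.97 in CD74, 11.68 in Trem2, 11.38 in Ccrl2 and 9.94 in CD163. The part of these cell types in the order of the B cell genes was not tested. Ebf1 is also a stromal gene, and 5 of 6 fibroblast markers lay above the ceiling in Ccrl2 and in Trem2, 2 in CD74 and 2 in CD163. Of 7 mural cell markers, 2 lay above it in Ccrl2, 2 in Trem2 and 0 in CD74 and CD163. Dcn, a fibroblast proteoglycan, had 12.65 in Ccrl2, 12.67 in Trem2, 7.01 in CD163 and 4.71, under the ceiling, in CD74. Col3a1, Lum and Tcf21 were under it in CD74 too. Col1a1 and Col1a2 lay above it there, with 7.87 and 6.72 against 7.92 and 7.83 in Ccrl2. Ebf1 had 9.02 in CD74. The part of fibroblasts and mural cells in the Ebf1 values was not tested.

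**Figure D3:**
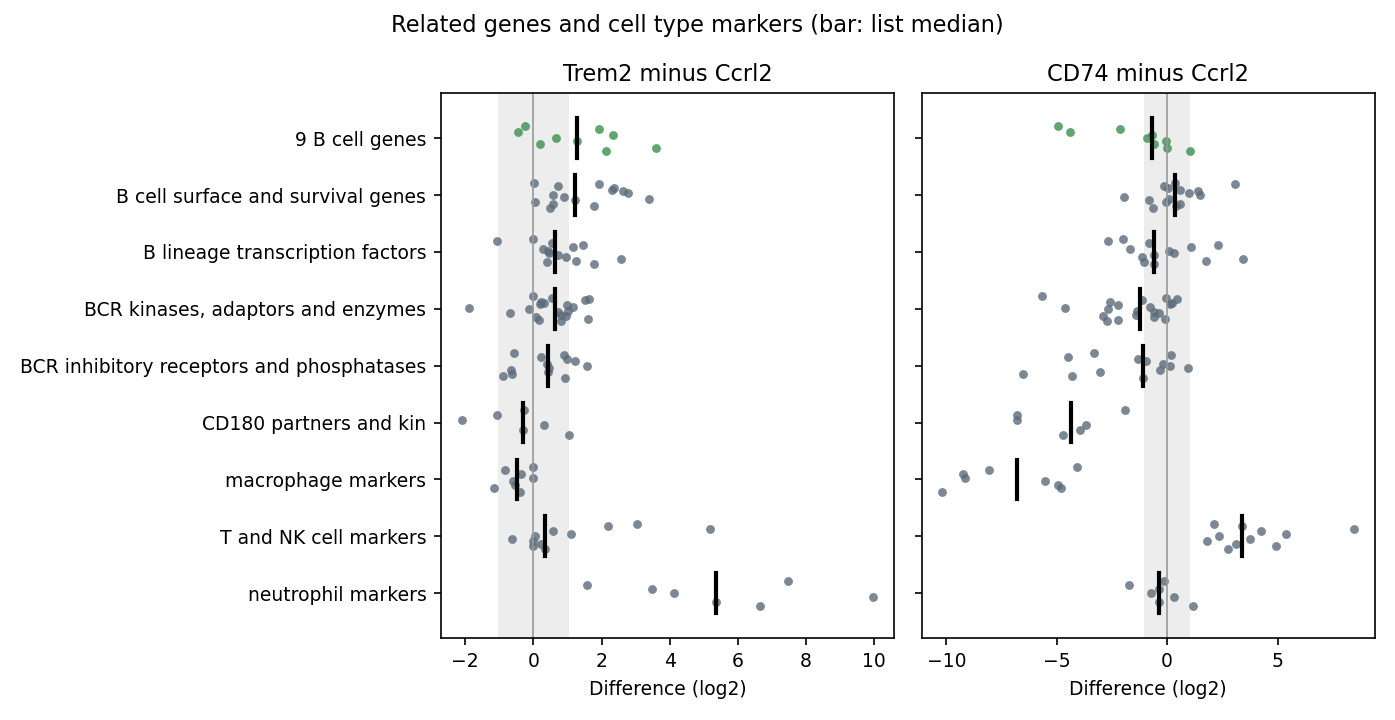
Differences in log2 value for the 9 genes, related lists and cell type markers, 1 point for each measured gene, between Trem2 and Ccrl2 (left) and CD74 and Ccrl2 (right); black bars are list medians and the grey band spans less than 2-fold. The neutrophil markers have a median of 5.36 on the left and the T and NK cell markers a median of 3.37 on the right, beside 1.29 and -0.70 for the 9 genes.

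The patterns most like these were looked for among 9010 other named genes that passed the ceiling somewhere. Likeness was the Euclidean distance between the 4 log2 values of a gene, centred on their own mean, and those of the target. Nearest to the mean profile of the 6 genes taken as largely confined to B cells (Cd79a, Cd79b, Ms4a1, Pax5, Bank1 and Cd22) was Pou2af1, at a distance of 0.21 log2 units, followed by Cnot2 (0.25), Dad1 (0.30), Cd274 (0.36), Slc16a3 (0.40), Slc2a1 (0.41), Paip2 (0.48), Klf3 (0.49), Rps20 (0.51) and Ptp4a3 (0.51). That profile stood at 2.06 above its own mean in Trem2, 0.15 in Ccrl2, -0.26 in CD74 and -1.96 in CD163. Its CD163 value rests partly on background, since Cd79b, Ms4a1, Pax5 and Cd22 lay under the ceiling there. Cd22 did so in CD74 too. Bank1, by contrast, had 10.19 in CD163, well above the ceiling. Genes of general use such as Rps20, a ribosomal protein, and Dad1, an enzyme subunit of protein glycosylation, shared the mean profile with Pou2af1. After quantile normalization Slc2a1 ranked 2, Slc16a3 ranked 3 and Pou2af1 ranked 5. Klf3 then ranked 12, Cnot2 16, Dad1 77 and Rps20 187. Nearest to Ebf1 were Bcl3, Cilk1 and Unkl (0.07, 0.11 and 0.12), which ranked 1231 or later after quantile normalization. Nearest to Blnk were Kitl, Zcchc7 and Fem1c (0.27, 0.38 and 0.39), with Kitl also first after quantile normalization, and nearest to Cd180 were Jmjd1c, Gng2 and Plekho2 (0.17, 0.24 and 0.26). With 4 libraries, many genes lie this close by distance, and the order is a description of these arrays.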

How the data were processed

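The data were deposited log2 expression values of 4 Clariom S mouse arrays, 1 for each sorted population. Per the labels' protocols, RNA was amplified with a whole-transcript kit for small inputs, and the authors background-corrected, normalized and summarised the probes by robust multichip average, with GeneSpring GS 11. Affymetrix Expression Console is listed in the submitters' processing notes. No genome build of the probes is given in the sources used here. That values are log2 was inferred from their range, 2.97 to 19.93. Of 22206 gene probe sets, 19572 had 1 symbol in the platform annotation, 0 several and 2634 none. All 19572 matched GRCm38.p6 genes by gene number. For the 55 genes with several probe sets, the one with the highest mean was used.

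The arrays' number limits the precision: with 1 library a group there is no test, SD or standard error. A fold marked "at least" is a lower bound, taken against the ceiling of a library whose value lay under it. Values within 0.015 of 19.93 count as saturated; none of the 9 genes was. Deposited column distributions differed, with 95th percentiles from 8.30 (CD74) to 10.25 (Trem2), so calls were repeated after quantile normalization. Named were the 9 genes, up to 4 genes of each related list with the widest range, and the 10 (or 3) nearest patterns; other list members in the text were chosen after their values were seen. The genes and lists were chosen with earlier results of these data known. Promoters are from RefSeq (GRCm38.p6), 250 bases before the start, 1 window for each gene (for Ebf1 and Cd180 all windows). The calling rule was tested on simulated data with like column distributions and changes added to genes well above the ceilings. That test does not cover unequal distributions or values near a ceiling, as found here. Python 3.11.15, numpy 2.4.6 and pandas 2.3.3 were used.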

Additional observations from a re-analysis of the deposited data

How the results depend on the processing

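Each count of the 9 genes called between 2 libraries was repeated under 8 alternatives, and each count above the ceiling under 3. With the scaling that leaves out CD74, which was added after the data were seen, 95 repeats stayed within 1.5 times the count and 19 did not. Quantile normalization moved 5 counts: 3 genes were higher in CD74 than Ccrl2 (1 as reported), 3 in CD74 than CD163 (1), 1 in CD74 than Trem2 (0), 3 in Trem2 than CD74 (8) and 2 in Ccrl2 than CD163 (4), the last also without CD74 in the scaling. Median centring left 0 higher in CD74 than Ccrl2. With no ceiling on the dimmer value, or none at all, 4 were higher in CD74 than CD163 and 8 in Ccrl2 than CD163. At 1.5-fold, 4 were higher in Ccrl2 than CD74, 2 in CD74 than CD163 and 7 in Ccrl2 than CD163. At 4-fold, 0 were higher in CD74 than Ccrl2, 4 in Trem2 than CD74 and 3 in Trem2 than Ccrl2. With the ceiling at the 99th percentile, 3 genes each were above it in CD74 (7) and CD163 (5). The mean over probe sets moved no count. Of 31 gene and library pairs called, 2 changed direction in any of the 8 alternatives, both under quantile normalization: Cd79a in Trem2 minus CD74 became -1.15 and Ebf1 -0.54. The cause was not tested. No paired analysis was possible because each population was 1 library. Values near a ceiling, such as Cd79a in CD163 and Ms4a1 in CD74, are poorly resolved.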
